A study of Mus musculus with 6 samples.

Results

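The 10 genes described here belong to the NRF2 antioxidant response and were chosen by name: the regulators Nfe2l2 and Keap1, and the targets Gclm, Gclc, Gsr, Slc7a11, Txnrd1, Srxn1, Nqo1 and Hmox1. All 10 were found among the 58601 rows of the expression table, and 9 of them reached the mean of 1 TPM (a level per length of transcript, scaled to the same total in each library) that was required for testing, as did 13854 rows in all. Liver RNA was sequenced from mice labelled Mdr2 knockout that were given lycorine, an alkaloid of Amaryllidaceae plants (3 libraries), or vehicle (3 libraries). Both groups carry the same genotype, which the growth protocol spells Mdr2-HKO, were 8 weeks old at the start and were treated for 2 weeks. The labels give neither dose nor sex, nor what the H in HKO stands for and how the gene was removed. Libraries are numbered within a group but not said to come from separate animals, so p-values measure the spread between libraries, which may be in part technical. The series was made to learn what lycorine does in intrahepatic cholestasis.

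NRF2, the protein of Nfe2l2, is a transcription factor that KEAP1 holds in the cytosol and hands to a ubiquitin ligase for degradation. Electrophiles and oxidants modify cysteines of KEAP1, and NRF2 then escapes, enters the nucleus and binds antioxidant response elements together with small MAF proteins. Its targets make and recycle glutathione, reduce thioredoxin and peroxiredoxins, reduce quinones and break down heme. NRF2 is controlled mainly through protein stability, so the mRNA level of Nfe2l2 does not measure its activity. Retained bile acids are known to place hepatocytes under oxidative stress, and the pathway is much studied in cholestatic liver for that reason.

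The core of the antioxidant response element, TGACNNNGC, and the related AP-1 core TGACTCA were searched on both strands in the 250 bases before each start site, in promoter sequences from RefSeq on GRCm38.p6. Of the 10 genes 7 had an entry, with 9 start sites in all because Txnrd1 has several. TGACNNNGC was found before 3 of these start sites, and in 10.2% of the 32851 promoters of the table. The TGACTCA core, which reads TGAGTCA on the opposite strand, was found in 4.46% of promoters and 2 times before Srxn1, at bases -102 to -96 and -45 to -39 from its start site. A match describes the letters and does not show binding. The sequences are shown for Gclm, because it had the largest log2 fold change of the tested genes, for Srxn1, whose levels tracked Nqo1 most closely, and for the other matches. They are given 5′ to 3′ on the gene's strand, with the match in capitals.
Gclm, the 250 bases before its start site, chr3:122245307-122245556, plus strand: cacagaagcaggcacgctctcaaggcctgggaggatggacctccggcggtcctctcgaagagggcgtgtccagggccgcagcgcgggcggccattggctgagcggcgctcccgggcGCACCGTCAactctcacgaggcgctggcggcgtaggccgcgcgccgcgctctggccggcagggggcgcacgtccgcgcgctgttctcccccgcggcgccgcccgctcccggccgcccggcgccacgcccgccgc
Srxn1, a stretch of 100 bases, chr2:152105404-152105503, plus strand: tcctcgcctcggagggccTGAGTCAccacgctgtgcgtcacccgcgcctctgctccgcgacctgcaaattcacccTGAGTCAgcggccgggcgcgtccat
Nfe2l2, around its match, chr2:75704885-75704913, minus strand: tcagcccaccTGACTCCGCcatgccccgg
Txnrd1, around its match before 1 of its 3 start sites, chr10:82859104-82859132, plus strand: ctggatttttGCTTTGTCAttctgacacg
In Gclm the match lay on the opposite strand, from base -134 to base -126 counted from the start site, and in Txnrd1 likewise from -92 to -84. In Nfe2l2, the gene of NRF2 itself, it lay on the gene's strand from -240 to -232. The first bases transcribed from these start sites of Nfe2l2 and Txnrd1, as RefSeq places them, were not found in a GENCODE M21 transcript of the gene, while those of Gclm and Srxn1 were. The windows of Keap1, Nqo1 and Slc7a11 held neither core, and bases farther upstream were not searched.

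The libraries differed in makeup in ways that touch every value below. Abcb4, the gene of Mdr2, was read at 8.96, 8.32 and 32.2 TPM in lycorine and at 43.5, 10.8 and 12.3 TPM in vehicle, and a gene-level value does not show which part of a transcript remains. Protein-coding nuclear genes held 69.5% to 78.1% of TPM in lycorine and 51.5% to 71.5% in vehicle, with the lowest share in vehicle 3. The hepatocyte product albumin (Alb) was at 11824 to 19785 TPM in lycorine and at 5039 to 18246 TPM in vehicle, again lowest in vehicle 3. Assembled or unannotated rows took 10.8% of TPM for vehicle 3, while the next highest share was 4.1%, for lycorine 3. Vehicle 3 was also the library least like the rest. Its Pearson r with each of them ran from 0.728 to 0.778, whereas pairs without vehicle 3 had 0.863 to 0.953. In TPM a lower share of protein-coding RNA lowers all such genes together, and the median log2 fold change over all tested rows was 0.22. With median-of-ratios scaling, which sets the typical gene equal between libraries, that median was -0.02. Depth is unknown, since TPM keeps no trace of it, and in bulk liver fewer cells of a type and less RNA per cell cannot be told apart.

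Of the 9 tested genes, 0 passed limma's test after Benjamini-Hochberg adjustment over all rows, against 0.00% of all rows, and their adjusted p-values ran from 0.832 to 0.884. At an unadjusted p under 0.05 there were 0 of the 9 and 476 of the 13854 rows, or 3.44%. The log2 fold change was above 0 for 8 of the 9, and for 69.9% of all rows. The median over the 9 was 0.28, close to the 0.22 of all rows. With median-of-ratios scaling 4 of the 9 were above 0, against 47.8% of all rows, and their median was -0.0046. The groups of libraries did not overlap in 1 gene, Gclm, which was higher in lycorine, and 9.60% of all rows were separated in that direction. In the other direction it was 0 genes, against 1.01% of all rows.

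**Figure D1:**
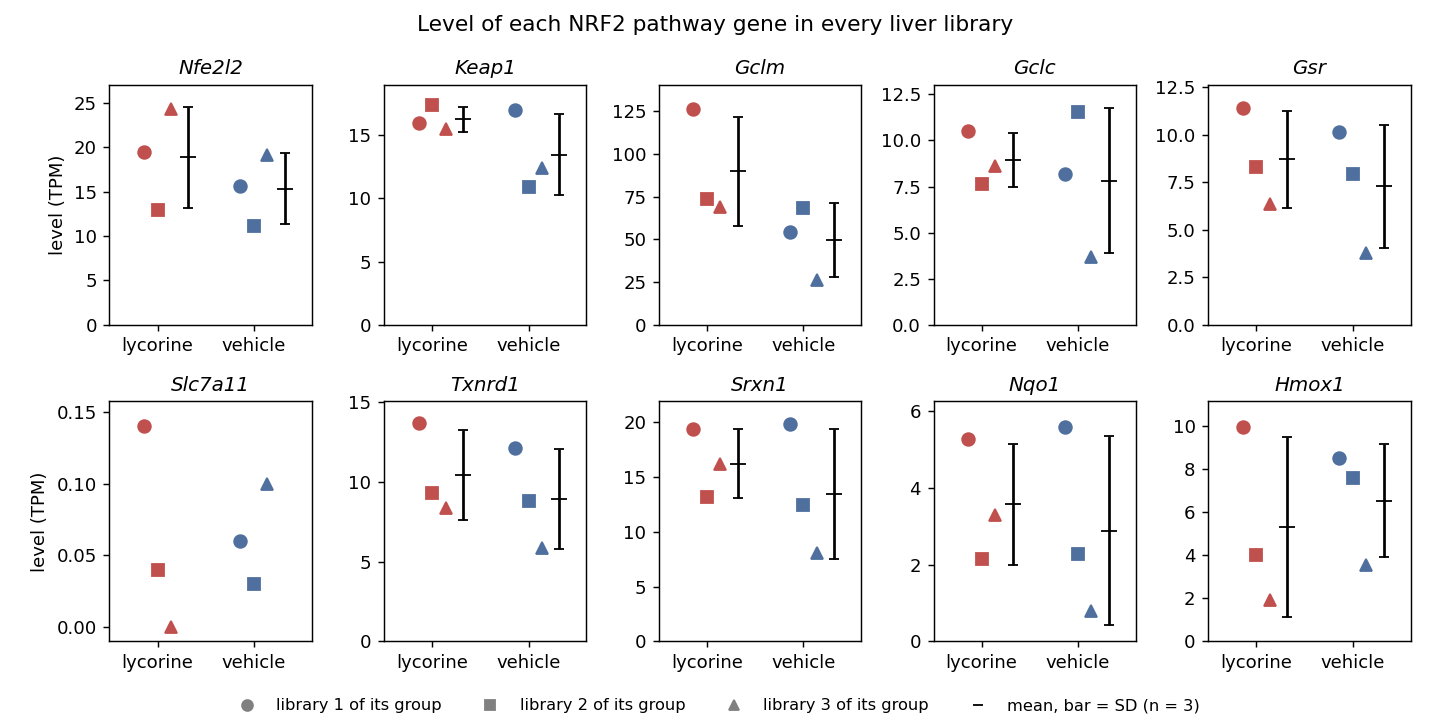
Level in TPM of each of the 10 genes in every library, lycorine in red and vehicle in blue, with the marker shape giving the library's number and black bars the mean and SD of the group (none for Slc7a11, which is listed at 0 in 1 library). The vertical scales differ between genes. Only in Gclm does each lycorine library, from 69.2 to 126.3 TPM, lie above each vehicle library, from 26.2 to 68.5 TPM.

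The regulators were expressed at a moderate level in every library. Nfe2l2, on chromosome 2 from 75675513 to 75704641 (GRCm38, as are all gene positions here), was at 19.4, 12.9 and 24.3 TPM in lycorine and at 15.7, 11.2 and 19.2 TPM in vehicle. The groups overlapped, and library 2 was the lowest in both. Its difference between lycorine and vehicle was 0.27 on the log2 scale, with an SE of 0.35 and an adjusted p of 0.862 by limma. The exact permutation p was 0.4. Keap1, on chromosome 9 from 21229730 to 21239361, encodes the oxidant-sensing adaptor that marks NRF2 for degradation. It was at 16.0, 17.4 and 15.5 TPM in lycorine and at 17.0, 10.9 and 12.4 TPM in vehicle. Its lycorine libraries lay close together, and vehicle 1 reached into their range. Limma gave a log2 fold change of 0.28 (SE 0.28, adjusted p = 0.833). Nfe2l2 and Keap1 were the only tested members, of the 9, that were lowest in vehicle 2. The ratio of Nfe2l2 to Keap1 was 1.18 ± 0.416 in lycorine and 1.16 ± 0.333 in vehicle (SD, n = 3 each).

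Glutamate-cysteine ligase, the enzyme of the rate-limiting step of glutathione synthesis, has a catalytic subunit made from Gclc and a modifier subunit made from Gclm that raises its efficiency. Gclm, on chromosome 3 from 122245557 to 122270732, was at 126.3, 73.8 and 69.2 TPM in lycorine and at 54.5, 68.5 and 26.2 TPM in vehicle. All lycorine libraries were above all vehicle libraries, but lycorine 3 and vehicle 2 lay less than 1 TPM apart, and lycorine 1 and vehicle 3 stood at the ends. It averaged 89.8 ± 31.7 TPM in lycorine and 49.7 ± 21.5 TPM in vehicle (SD, n = 3 each). Its log2 fold change was 0.89 (SE 0.44, 95% interval -0.13 to 1.91), or 0.67 more than the typical row, and limma's adjusted p was 0.832. Without vehicle 3 it was 0.49, and without vehicle 2 it was 1.17. The exact permutation p was 0.1, two-sided, the smallest that 3 against 3 libraries can give. With median-of-ratios scaling the log2 fold change was 0.58 and the groups overlapped, because vehicle 2 then came to 92.8 against 67.1 to 99.8 in lycorine.

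Gclc, on chromosome 9 from 77754535 to 77794485, was at 10.5, 7.63 and 8.61 TPM in lycorine and at 8.20, 11.6 and 3.69 TPM in vehicle. Vehicle held both the highest and the lowest library, so the lycorine values lay within the vehicle range. The log2 fold change came to 0.27 (SE 0.40, adjusted p = 0.879 by limma), and -0.13 without vehicle 3. Since TPM is per length, the subunits can be set side by side, and their ratio within a library does not depend on the scaling between libraries. The ratio of Gclm to Gclc was 12.0, 9.67 and 8.04 in lycorine and 6.64, 5.93 and 7.10 in vehicle. The groups did not overlap, with 9.90 ± 1.99 in lycorine and 6.56 ± 0.591 in vehicle (SD, n = 3 each). Of the ratios of all other tested rows to Gclc, 1.54% were separated in that direction. This ratio and the 5 others given here were chosen after the levels had been seen, and no test is given for them.

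Gsr, the reductase that returns oxidised glutathione to its reduced form, lies on chromosome 8 from 33652523 to 33698163. It was at 11.4, 8.31 and 6.37 TPM in lycorine and at 10.1, 7.94 and 3.76 TPM in vehicle. In each group library 1 was the highest and library 3 the lowest, and the groups overlapped. The log2 fold change came to 0.28 (SE 0.40, adjusted p = 0.875 by limma), and -0.075 without vehicle 3. The ratio of Gsr to Gss, the glutathione synthetase of the final step, was 0.120, 0.117 and 0.0918 in lycorine and 0.154, 0.120 and 0.117 in vehicle, which overlap. Slc7a11, the cystine importer that feeds glutathione synthesis in many cultured and tumour cells, lies on chromosome 3 from 49892526 to 50443614. It was at 0.14 and 0.04 TPM and listed at 0 in lycorine, and at 0.06, 0.03 and 0.10 TPM in vehicle. These levels were near the lowest value that the table's 2 decimals can hold, and the gene was not tested.

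**Figure D2:**
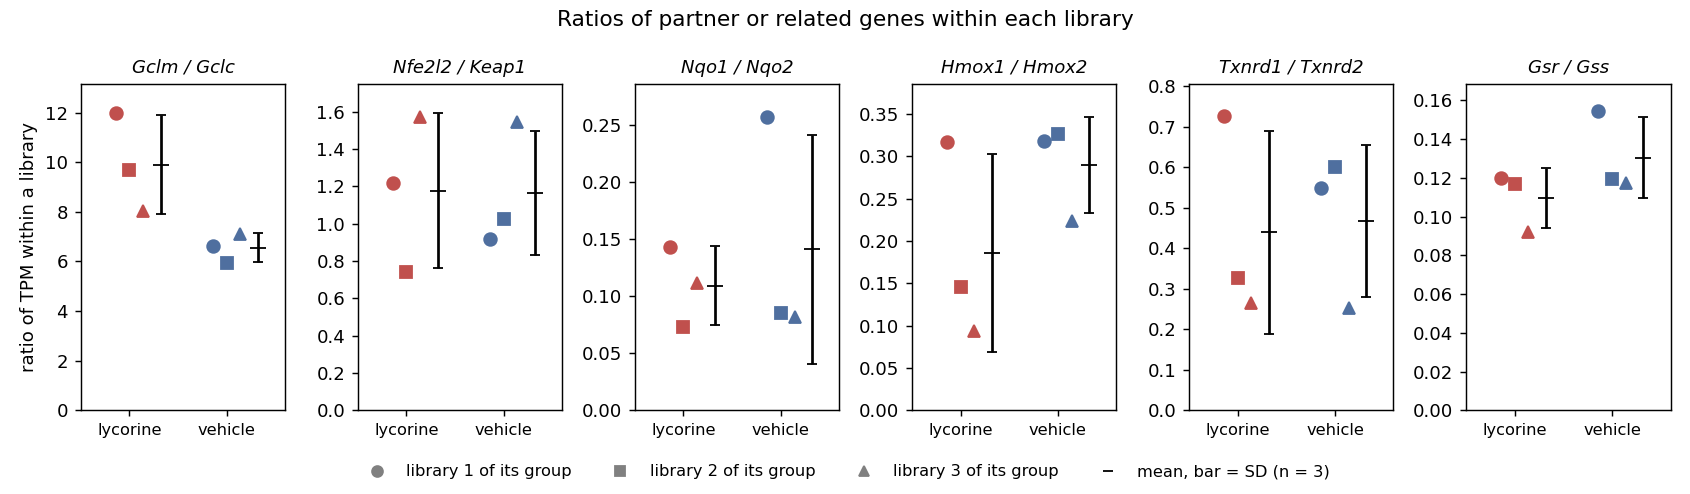
Ratio of TPM of partner or related genes within each library, lycorine in red and vehicle in blue, with marker shapes for the library's number and black bars for mean and SD. The ratio of Gclm to Gclc is 8.04 or more in lycorine and 7.10 or less in vehicle, and the groups overlap in the other 5 ratios.

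Of the thioredoxin branch, Txnrd1 and Srxn1 are members, and both overlapped between the groups. Txnrd1, the cytosolic thioredoxin reductase, on chromosome 10 from 82833951 to 82897712, was at 13.7, 9.28 and 8.35 TPM in lycorine and at 12.1, 8.83 and 5.86 TPM in vehicle. As for Gsr, library 1 was highest and library 3 lowest in each group. Limma gave a log2 fold change of 0.22 (SE 0.35, adjusted p = 0.884), and -0.056 with median-of-ratios scaling. Its ratio to the mitochondrial reductase Txnrd2 was 0.726, 0.325 and 0.266 in lycorine and 0.548, 0.600 and 0.252 in vehicle. Reads of Txnrd1 may be shared with Eid3, a gene on the same strand that overlaps it. Srxn1, sulfiredoxin, repairs peroxiredoxins that have been over-oxidised, and lies on chromosome 2 from 152105516 to 152111376. It was at 19.4, 13.1 and 16.2 TPM in lycorine and at 19.9, 12.4 and 8.08 TPM in vehicle. Vehicle 1 was the highest library and vehicle 3 the lowest, with a log2 fold change of 0.32 (SE 0.37, limma adjusted p = 0.849). Without vehicle 3 it was 0.027.

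The enzymes of quinone and heme handling had the largest standard errors of the 9. Nqo1, a quinone reductase and the classical readout of NRF2, lies on chromosome 8 from 107388225 to 107403206. It was at 5.27, 2.15 and 3.30 TPM in lycorine and at 5.59, 2.28 and 0.78 TPM in vehicle. Library 1 of each group was at almost the same level, and so was library 2, while vehicle 3 was the lowest of all. Limma gave a log2 fold change of 0.38 (SE 0.53, adjusted p = 0.873), 0.86 without vehicle 1 and -0.081 without vehicle 3. Its ratio to the related Nqo2 was 0.143, 0.0733 and 0.111 in lycorine and 0.256, 0.0849 and 0.0814 in vehicle.

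Hmox1, heme oxygenase, which opens the heme ring to biliverdin, iron and carbon monoxide, lies on chromosome 8 from 75093621 to 75100589. It was at 9.95, 4.01 and 1.92 TPM in lycorine and at 8.48, 7.58 and 3.52 TPM in vehicle. Lycorine held both the highest and the lowest library. It was the tested member, of the 9, with a log2 fold change below 0, at -0.40 (SE 0.54, limma adjusted p = 0.871), and this was -0.91 without lycorine 1 and 0.048 without lycorine 3. Its ratio to the constitutive Hmox2 was 0.317, 0.146 and 0.0935 in lycorine and 0.318, 0.327 and 0.224 in vehicle. Hmox1 is known to be strongly expressed by macrophages that take up red cells. Of 12 markers of Kupffer cells, which are the macrophages resident in liver, 10 were tested. All 10 had a log2 fold change below 0, with a median of -1.09, while 69.9% of all rows were above 0. The groups were separated downward in 6 of the 10, against 1.01% of all rows. Timd4 is among these, and at 0.93 TPM in lycorine and 2.85 TPM in vehicle it reached testing through vehicle. The summed level of the 12 was 154.7 to 390.8 TPM in lycorine and 233.0 to 542.7 TPM in vehicle. Most of it came from C1qa, C1qb and C1qc, at 153.7, 125.6 and 87.9 TPM in lycorine 1, whose groups overlapped. Lycorine 1, the highest library for Hmox1, was the lowest for Fcna, Vsig4 and Cd5l, at 2.27, 1.71 and 1.78 TPM. It was also the lowest for Clec4f, Timd4 and Marco, at 14.6, 0.52 and 0.19 TPM. For Folr2 and the 3 C1q genes it was not the lowest. Of the 10 tested markers 0 passed limma's adjusted test. Of these markers Fcna was at 3.70 ± 1.44 TPM in lycorine and 15.5 ± 1.05 TPM in vehicle, and Vsig4 at 1.92 ± 0.234 and 6.05 ± 1.20 TPM in the same order (SD, n = 3 each). Cd5l was at 5.09 ± 3.25 TPM in lycorine and 18.1 ± 7.96 TPM in vehicle. The most abundant marker, C1qa, overlapped, with 79.3 ± 65.6 TPM in lycorine and 104.8 ± 62.9 TPM in vehicle. Summed markers of recruited macrophages were 426.9, 196.3 and 83.1 TPM in lycorine and 476.6, 113.4 and 106.0 TPM in vehicle. Other marker lists had median log2 fold changes of -0.56 for sinusoidal endothelial cells (6 tested) and -0.18 for stellate cells and fibroblasts (5 tested). Neutrophils had -1.47 (3 tested), red cells -0.094 (5 tested), bile duct cells 0.33 (6 tested) and hepatocytes 0.19 (7 tested). In these lists 0 genes passed limma's adjusted test. The endothelial marker Kdr exceeded 1 TPM in vehicle 1 alone, at 14.1, and was admitted to testing through it. The neutrophil marker Csf3r averaged 0.87 TPM in lycorine and 1.99 TPM in vehicle. The neutrophil median is that of S100a8, at 1.83, 1.21 and 0 TPM in lycorine and 11.2, 2.93 and 1.75 TPM in vehicle, which overlap. The groups were separated downward in 1 tested gene each of the neutrophil, endothelial and stellate cell lists, against 1.01% of all rows. These were S100a9 (0.55 to 1.55 TPM in lycorine, 3.34 to 12.7 in vehicle), Clec4g (2.87 to 5.17 and 8.90 to 15.4) and Reln (1.73 to 2.30 and 2.72 to 4.74). The part of these cells in the Hmox1 values was not tested.

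Some libraries stood high or low in many of the 9 genes. Vehicle 3 was the lowest library in 6 of them, and in 33.5% of all rows. Lycorine 1 was the highest in 4, against 31.0% of all rows, and vehicle 1 in 2. All 9 were above their own mean in lycorine 1, 7 in vehicle 1, and 1, Nfe2l2, in vehicle 3. With median-of-ratios scaling it was 7 in lycorine 1, 5 in vehicle 1 and 2 in vehicle 3. The shares of all rows for these counts, and for vehicle 1 as the highest library, were not computed. The counts may therefore describe whole libraries and not these genes. The median deviation of the 9 from their means, on the log2(TPM + 1) scale, was 0.50, -0.05 and 0.10 in lycorine and 0.34, -0.08 and -0.75 in vehicle. With median-of-ratios scaling these medians were 0.19, -0.13 and 0.06 in lycorine and 0.12, 0.32 and -0.51 in vehicle, so vehicle 3 remained the lowest and vehicle 2 became the highest. Summed bile duct markers were highest in library 1 of each group, at 199.96, 138.9 and 50.5 TPM in lycorine and 206.4, 46.5 and 48.1 TPM in vehicle. The part of cell makeup in these deviations was not tested.

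**Figure D3:**
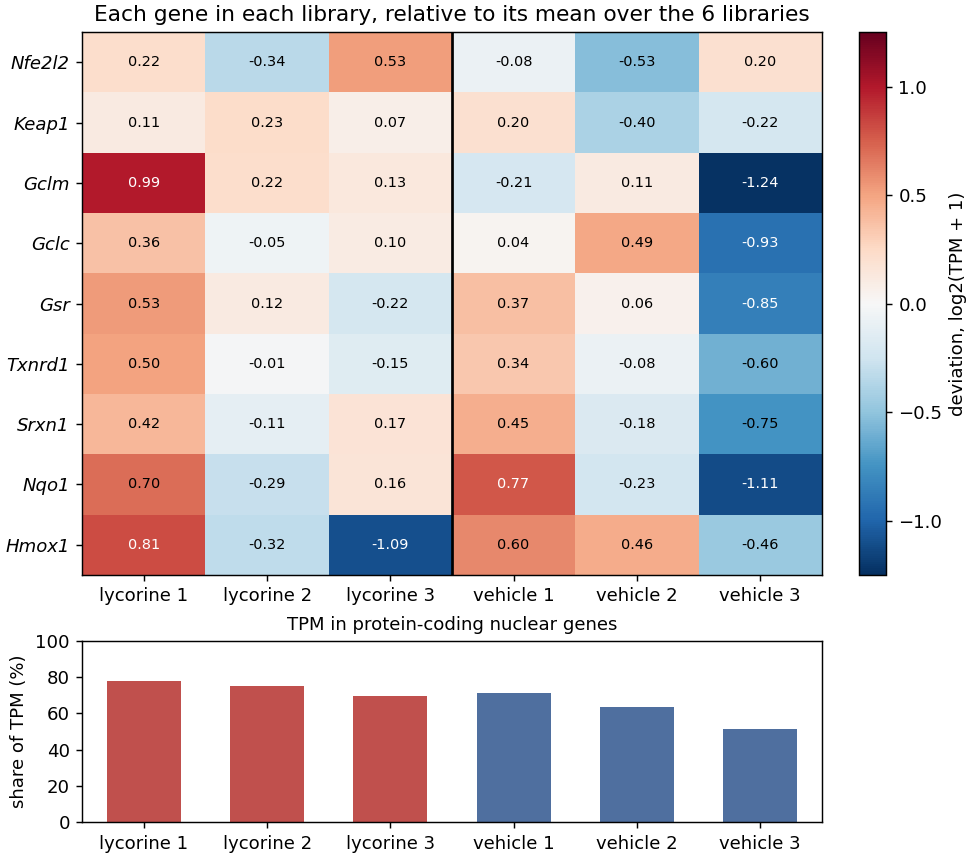
Upper panel: deviation of each of the 9 tested genes from its own mean over the 6 libraries, on the log2(TPM + 1) scale, red above and blue below, with lycorine left of the line and vehicle right of it. Lower panel: percent of each library's TPM in protein-coding nuclear genes. Vehicle 3, with the lowest share at 51.5%, is also below the mean in all genes but Nfe2l2.

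By mean level over the 6 libraries the order was Gclm at 69.7, Nfe2l2 at 17.1, Keap1 at 14.9, Srxn1 at 14.8, Txnrd1 at 9.69, Gclc at 8.37, Gsr at 7.99, Hmox1 at 5.91 and Nqo1 at 3.23 TPM, with Slc7a11 last. Gclm stood clear of the next gene, since its lowest library, at 26.2 TPM, was above the highest of Nfe2l2, at 24.3 TPM. From Nfe2l2 down to Nqo1, neighbours in this order overlapped in their range over libraries. Among 6204 protein-coding nuclear genes with a mean of at least 5 TPM, the 3 whose log2(TPM + 1) followed Nqo1 most closely over the 6 libraries were Srxn1 (Pearson r = 0.992), Cog1 (0.989) and Elp5 (0.988). For Hmox1 they were Irf2bp2 (0.953), Fgl1 (0.950) and Tnfrsf12a (0.941). With 6 points and so many genes such values describe likeness in libraries that differ in makeup, and no p is given.

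**Figure D4:**
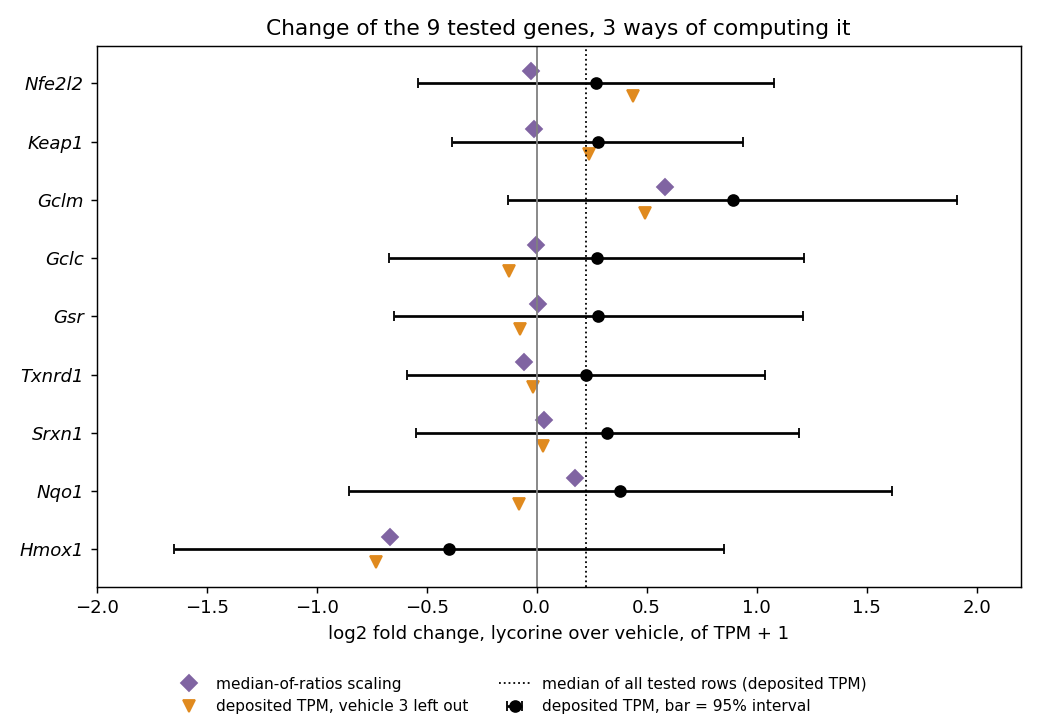
Log2 fold change of lycorine over vehicle for the 9 tested genes, with the 95% interval of limma's fit of the deposited values (black), the value with median-of-ratios scaling (purple) and the value without vehicle 3 (orange). The dotted line is the median of all tested rows, 0.22. All 9 intervals include 0. Gclm and Srxn1 are above 0 and Hmox1 is below 0 in all 3 computations, while the other 6 change sign in at least 1 of them.

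The genes of proteins that act with NRF2 formed a list of 14, all tested at the RNA level. Of these 10 had a log2 fold change above 0, 4 below 0 and 0 passed limma's adjusted test. The list's median was 0.20. The groups were separated upward in 1 of the 14, Dpp3, against 9.60% of all rows, and in 0 with median-of-ratios scaling. The 4 below 0, named here for that, were Bach2, a repressor related to BACH1, the small MAF Maff, and Fbxw11 and Gsk3b of the KEAP1-independent route of NRF2 degradation. Bach2 was at 0.69, 0.42 and 15.6 TPM in lycorine and at 1.43, 0.32 and 69.98 TPM in vehicle, so its level and its log2 fold change of -0.84 (SE 1.57) rest on library 3 of each group. Mafg, a small MAF partner of NRF2, had the smallest p, at 3.36, 5.83 and 7.93 TPM in lycorine and 2.32, 0.36 and 3.70 TPM in vehicle (log2 fold change 1.22, SE 0.52, adjusted p = 0.832). Lycorine 1 lay within the vehicle range. Btrc, which directs NRF2 to degradation independently of KEAP1, and Rbx1, a subunit of the KEAP1 ligase, had log2 fold changes of 0.64 and 0.72, and both overlapped. Sqstm1, the autophagy receptor p62 that can sequester KEAP1 and is itself an NRF2 target, was the most abundant. It was at 400.1 ± 82.4 TPM in lycorine and 373.7 ± 181.5 TPM in vehicle (SD, n = 3 each), with a log2 fold change of 0.19.

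The wider glutathione list had 13 tested genes of 16, of which 12 were above 0, with a median of 0.47. The exception was the secreted peroxidase Gpx3, at -0.70. Gpx1, the main cytosolic glutathione peroxidase, was at 3369, 3326 and 2851 TPM in lycorine and at 1707, 2331 and 1650 TPM in vehicle. Each lycorine library lay above each vehicle library, with a log2 fold change of 0.76 (SE 0.26, limma adjusted p = 0.832). Hagh, of the glyoxalase pathway, and Chac2, a glutathione-degrading cyclotransferase, had 0.64 and 0.54. The groups were separated upward in 3 of the 13 genes, Gss, Chac2 and Gpx1, and in 9.60% of all rows. With median-of-ratios scaling this held for 0 of them, and for 3.20% of all rows.

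Of 14 thioredoxin and peroxiredoxin genes 14 were above 0 and 12 above the median of all rows. With median-of-ratios scaling 12 were above 0, and the list's median was 0.23 in place of 0.54. Prdx6, a peroxiredoxin that also acts on phospholipids, was at 308.2 ± 24.0 TPM in lycorine and 193.6 ± 26.6 TPM in vehicle (SD, n = 3 each). Prdx2, a cytosolic peroxiredoxin, was at 367.6 ± 20.9 TPM in lycorine and 236.7 ± 44.6 TPM in vehicle. Their log2 fold changes were 0.67 and 0.65, each with a limma adjusted p of 0.832, and their groups did not overlap. In TPM 4 of the 14 genes were separated upward, Prdx2, Prdx4, Prdx6 and Msrb1, against 9.60% of all rows, and with median-of-ratios scaling 0 were. Msrb1, a selenoprotein that repairs oxidised methionine, was at 223.5 ± 15.5 and 149.8 ± 19.4 TPM in the same order. Prdx5, the most abundant of the list, had 0.32.

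Among 8 genes of heme breakdown and iron storage 7 were above 0, with a median of 0.41. The iron exporter Slc40a1 was at -0.035. Blvrb, a biliverdin reductase, was at 244.6, 299.7 and 328.2 TPM in lycorine and at 179.0, 174.0 and 200.1 TPM in vehicle. Its groups did not overlap in TPM, with a log2 fold change of 0.65 (SE 0.26, limma adjusted p = 0.832). It was the 1 separated gene of the 8, against 9.60% of all rows, and with median-of-ratios scaling 0 of the 8 were separated. Blvra, the other biliverdin reductase, and the ferritin heavy chain Fth1 each had 0.49. The light chain Ftl1, an NRF2 target, was at 10187 ± 554.0 TPM in lycorine and 8873 ± 3071 TPM in vehicle (SD, n = 3 each).

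The 27 detoxification and export genes known as NRF2 targets were all tested, 21 were above 0 and 6 below, and 0 passed limma's adjusted test. At an unadjusted p under 0.05 there were 5, namely Gsta3, Gstm4, Abcc3, Ptgr1 and Htatip2, against 3.44% of all rows. The groups were separated upward in 7 of the 27, against 9.60% of all rows, and in 3 with median-of-ratios scaling, against 3.20%. Akr1b7 is counted among the separated genes with either scaling. It entered the test through lycorine 1, the only library of the 6 in which it exceeded 1 TPM, at 5.01. Since it was admitted through the group where it is high, its separation carries no weight. Abcc4, among the 6 below 0, entered through vehicle 3, at 8.79 TPM, and was at 0.68 TPM or less in the other libraries. The median of the list was 0.51, and 0.24 with median-of-ratios scaling. Htatip2, an NRF2-inducible reductase-like protein, was at 42.2, 29.6 and 26.1 TPM in lycorine and at 16.9, 17.96 and 18.6 TPM in vehicle, without overlap. The transferase Gsta3 was at 184.1 ± 49.6 TPM in lycorine and 88.2 ± 34.0 TPM in vehicle, and the exporter Abcc3 at 65.2 ± 18.5 and 32.6 ± 14.9 TPM in the same order (SD, n = 3 each). Their log2 fold changes were 0.81, 1.10 and 1.04. Gstp1, the most abundant of the list, was at 4658 ± 1172 TPM in lycorine and 4761 ± 741.0 TPM in vehicle. Osgin1, an oxidative stress-induced growth inhibitor named here after its values were seen, was at 34.6, 62.0 and 82.1 TPM in lycorine and at 191.6, 89.1 and 55.9 TPM in vehicle. Reads of near-identical glutathione transferases can be shared between them, so their single values are uncertain.

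Of 6 genes that supply NADPH, the electron donor of Gsr, Txnrd1 and Nqo1, 5 were above 0, and malic enzyme Me1 was at -0.061. Idh1, Taldo1 and Pgd had log2 fold changes of 0.53, 0.64 and 0.56, and 0 of the 6 passed limma's adjusted test. The groups were separated upward in 1 of the 6, Idh1, against 9.60% of all rows, and in 0 with median-of-ratios scaling. Of the 4 superoxide and peroxide enzymes, Sod2, Sod1 and Cat had 0.77, 0.50 and 0.50, and the secreted Sod3 was at -0.066. Vehicle 3 was the lowest library for 15 of the 27 detoxification genes and for 11 of the 14 thioredoxin and peroxiredoxin genes, against 33.5% of all rows. Hepatocyte markers, which these enzymes share a cell type with, had a median log2 fold change of 0.19 over 7 tested genes, with summed levels of 30292 to 46467 TPM in lycorine and 15463 to 44624 TPM in vehicle. Their part in the lists was not tested.

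**Figure D5:**
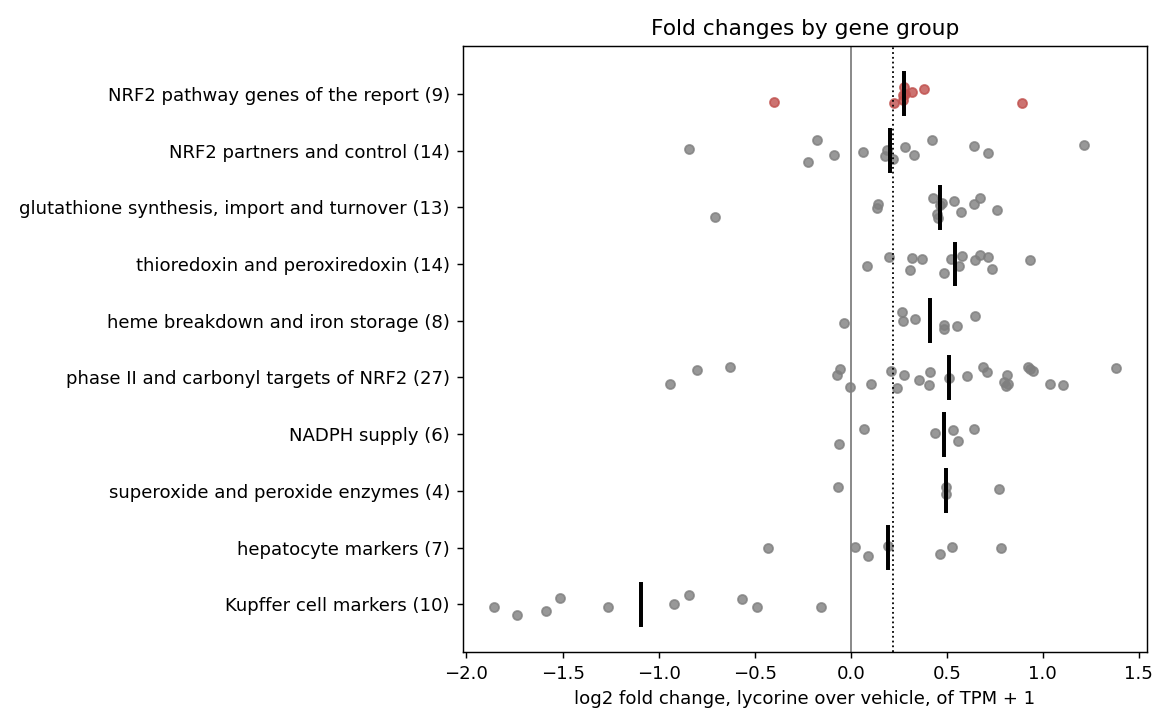
Log2 fold change of lycorine over vehicle on the TPM + 1 scale for each tested gene (points, spread vertically at random) by group, with the number of genes in brackets, black bars at the group's median and the dotted line at the median of all rows, 0.22. The 9 genes of the report (red) have a median of 0.28, the thioredoxin and peroxiredoxin genes 0.54 and Kupffer cell markers -1.09.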

How the data were processed

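The authors deposited 1 table with a value for each gene in each library. FPKM is the unit in its title, yet every column sums to 1000000 within rounding, so the deposited values are TPM with 2 decimals. The test had been planned for either unit and was run on TPM. Aligner, quantifier, settings and strandedness: not given in the sources used here. As builds, the submitters' processing notes name GRCm38 and mm10. Columns of vehicle carry genotype and number alone, and were assigned to vehicle because the others carry a short form of lycorine. Gene names and positions came from GENCODE M21, which holds 52135 of the 55416 Ensembl identifiers.

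Rows averaging 1 TPM or more were transformed to log2(TPM + 1), so fold changes understate changes of weakly expressed genes. Lycorine was compared with vehicle with limma 3.58.1 (R 4.3.3), its variance trend switched on, two-sided and adjusted over all tested rows, with a threshold of 0.05. Exact permutation tests used the 20 assignments of 3 and 3 libraries. The procedure was tested on simulated data. The 10 genes and the lists were chosen with earlier results of these data known, and the lists have no test of their own. The rule for list genes was to name the 3 with the smallest p and the most abundant one. It was followed for the pathway lists and Kupffer markers, other marker lists are given by sums or medians, and other list genes were named after their values were seen. Of the hepatocyte markers 1 symbol was not matched. Keap1, Gclm, Nfe2l2, Txnrd1, Gsr and Slc7a11 overlap other annotated genes, most of them small or noncoding, with which reads could be shared. As alternatives, libraries were left out, weighted or blocked by number, and the pseudocount, filter, scaling and variance model were changed.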

Additional observations from a re-analysis of the deposited data

How the results depend on the processing

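In all 16 alternatives 0 of the genes passed limma's adjusted test, also with no filter, when Slc7a11 was included. Nqo1 could not be fitted with a minimum mean of 5 TPM. Over all rows 1 was called with a pseudocount of 0.1 and 1 with array quality weights, and 0 to 2 when 1 library was left out (1 without lycorine 2, 2 without vehicle 2). Gclm and Srxn1 kept a log2 fold change above 0 in all 16, between 0.46 and 1.17 for Gclm and between 0.021 and 0.63 for Srxn1. The other 7 turned sign at least once. With median-of-ratios scaling the values were -0.023 for Nfe2l2, -0.012 for Keap1, -0.0046 for Gclc and -0.056 for Txnrd1, and with protein-coding nuclear genes alone -0.014 for Txnrd1. With array quality weights they were -0.14 for Nqo1 and -0.15 for Gclc. Leaving out 1 library in turn gave -0.081 to 0.86 for Nqo1, -0.91 to 0.048 for Hmox1, -0.13 to 0.58 for Gclc, -0.075 to 0.54 for Gsr and -0.018 to 0.45 for Txnrd1. Without both vehicle 3 and lycorine 3, Nqo1 was at -0.065 and Gclc at -0.11. The cause of these turns was not tested. The median over the genes was -0.018 without vehicle 3 and 0.45 without vehicle 1. The separation of the Gclm libraries was lost with median-of-ratios scaling, with quantile normalization and with protein-coding nuclear genes alone, and the ratio of Gclm to Gclc does not change with scaling. Without lycorine 2 the groups were separated in 2 genes and without vehicle 1 in 3. Groups separate more readily when a library is left out, and the share of all rows was not computed for these fits.

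Library numbers gave same-number correlations of deviations across rows between 0.05 and 0.31, over 0.1 in 2 of 3 pairs. Of the 6 libraries 5 correlated best with their own number. The deviations were centred within each group, so these correlations constrain one another. They do not show that libraries are paired, which the design does not state. With the replicate block 0 rows and 0 of the genes were called, and the median over the genes was 0.28. Depth is unknown, so no limit from counting can be given.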
